A study of Homo sapiens with 8 samples.

Results

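The SOXB and SOXC factors are SRY-related HMG-box transcription factors, and 7 genes were taken by a rule on family membership that uses no measured value: SOX2 and SOX3 (SOXB1), SOX14 and SOX21 (SOXB2), and SOX4, SOX11 and SOX12 (SOXC). All 7 were found by symbol among the 19472 genes of the crowding experiment and the 19551 genes of the ETV4 KD experiment. Libraries came from H9 (WiCell WA09), an established line of human embryonic stem cells (hESCs) grown on Matrigel in mTeSR1 or TeSR-E8 medium. The first experiment compared 2 libraries labelled small, the low-density cultures of the study, with 2 libraries labelled crowded, in which cells filled small drops of Matrigel. The second compared 2 libraries labelled Ctrl (shControl) with 2 labelled ETV4 KD (shETV4), in which a short hairpin RNA targets the ETS factor ETV4. The experiments shared no library, and the labels name no genetic change in any group other than the hairpins. The surface used for the low-density cultures was not given in the sources used here, so density and surface cannot be told apart, and a hairpin's effect on other transcripts cannot be told apart from that of ETV4 loss. The labels do not say whether replicates were separate cultures, so p-values measure the spread between these libraries.

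SOX proteins bind the minor groove of DNA through the HMG box and act with partner factors, such as OCT4 in pluripotent cells and POU or PAX factors in neural cells. SOXB1 proteins are activators that maintain pluripotent and neural progenitor states, and SOX2 is a core pluripotency factor. SOXB2 proteins share the SOXB1 HMG box but carry repressor domains, and SOX21 is known to counteract SOXB1 activity in the neural tube. SOXC proteins are activators that are best known for driving neuronal differentiation and survival of progenitors.

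Reads on genes totalled between 50359703 and 62410168 per library, and no pair of replicates agreed within sampling noise. ETV4 was lower in both shETV4 libraries (45.6 and 40.9 FPKM, a read level scaled to transcript length and library size) than in both shControl libraries (90.8 and 95.1 FPKM), a log2 fold change of -1.15 (adjusted p = 0.00016). With crowding it was at 54.2 and 53.9 FPKM against 73.2 and 72.6 FPKM (-0.49, adjusted p = 9.42e-07). The pluripotent identity of the cells was checked with 9 markers, all of them present in every library, and POU5F1 (OCT4) had group means between 1069.6 and 1347 FPKM. Summed over the mesendoderm markers, levels were between 0.621 and 1.26 FPKM per library in both experiments. The amnion, trophoblast and surface ectoderm markers summed to between 9.39 and 9.68 FPKM in the ETV4 KD experiment, and to 8.28 and 8.37 FPKM at low density against 12.3 and 13.1 FPKM at high density. TFAP2C, a transcription factor also present in pluripotent and germ cells, made up most of these sums and was higher with crowding (log2 fold change 0.61 ± 0.08 SE, adjusted p = 5.03e-06), as was KRT7 (0.42 ± 0.16 SE, adjusted p = 0.0386). The part of these markers in the results below was not tested. In bulk RNA, fewer cells of a type and less RNA per cell cannot be told apart.

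Each of the 7 genes has 1 annotated exon in GENCODE on GRCh37, the build of the deposited tables. The bases just upstream of the start sites of SOX21, SOX3 and SOX2 are shown because the first pair gave the strongest responses among genes with an entry in the RefSeq promoter table, and because SOX2 held the only SOX-type match. The windows lie at chr13:95364800-95365049 on the minus strand (SOX21), at chrX:139587235-139587484 on the minus strand (SOX3) and at chr3:181429463-181429712 on the plus strand (SOX2). Each window spans 250 bases and ends at the base before the start site, and capitals mark a motif match.
SOX21: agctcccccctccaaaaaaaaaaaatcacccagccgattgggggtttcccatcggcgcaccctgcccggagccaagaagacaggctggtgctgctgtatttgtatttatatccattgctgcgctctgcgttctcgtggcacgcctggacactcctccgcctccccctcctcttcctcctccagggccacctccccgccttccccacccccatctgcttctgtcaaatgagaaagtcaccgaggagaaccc
SOX3: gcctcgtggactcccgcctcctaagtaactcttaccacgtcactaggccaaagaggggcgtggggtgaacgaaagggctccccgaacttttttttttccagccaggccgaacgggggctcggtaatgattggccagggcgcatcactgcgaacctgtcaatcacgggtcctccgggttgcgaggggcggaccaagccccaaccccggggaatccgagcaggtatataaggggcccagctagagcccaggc
SOX2: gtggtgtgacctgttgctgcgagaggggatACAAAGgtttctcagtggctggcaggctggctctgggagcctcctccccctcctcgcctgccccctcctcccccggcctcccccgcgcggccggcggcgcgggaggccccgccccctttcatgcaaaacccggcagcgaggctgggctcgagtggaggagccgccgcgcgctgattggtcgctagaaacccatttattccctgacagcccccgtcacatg
Both strands of the 5 windows in the table (SOX2, SOX3, SOX21, SOX4 and SOX12) were searched for an ETS-type CCGGAAG, a TEAD-type GGAATG and a SOX-type ACAAAG. The first pair of these share the letters GGAA. SOX2 had 1 SOX-type match at bases -220 to -215 from the start site, and SOX4 had 1 TEAD-type match at bases -178 to -173. The ETS-type letters were in none of the 5 windows, and in 8.52% of the 35116 promoters of the same length, against 11.9% for the TEAD-type and 13.7% for the SOX-type letters. G and C made up 48.8% of the SOX4, 58.8% of the SOX21, 61.6% of the SOX3, 68.8% of the SOX2 and 79.2% of the SOX12 window, against a median of 58.0% over all promoters.

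SOX2 was the most abundant member in every library and SOX14 the least abundant. Per length, the order was SOX2, SOX4, SOX12, SOX11, SOX3, SOX21 and SOX14 in the low-density, shControl and shETV4 libraries, and no neighbours in that order overlapped over their libraries. At high density SOX21 stood above SOX3, at a ratio of SOX21 to SOX3 FPKM of 3.05 and 2.71 against 0.117 and 0.0978 at low density. SOX11 and SOX12 overlapped there. The share of SOX2 in SOXB1 FPKM was between 94.5% and 98.6%, so SOXB1 transcripts in these cells were mainly SOX2. SOX4 likewise made up between 70.7% and 81.5% of SOXC FPKM.

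**Figure D1:**
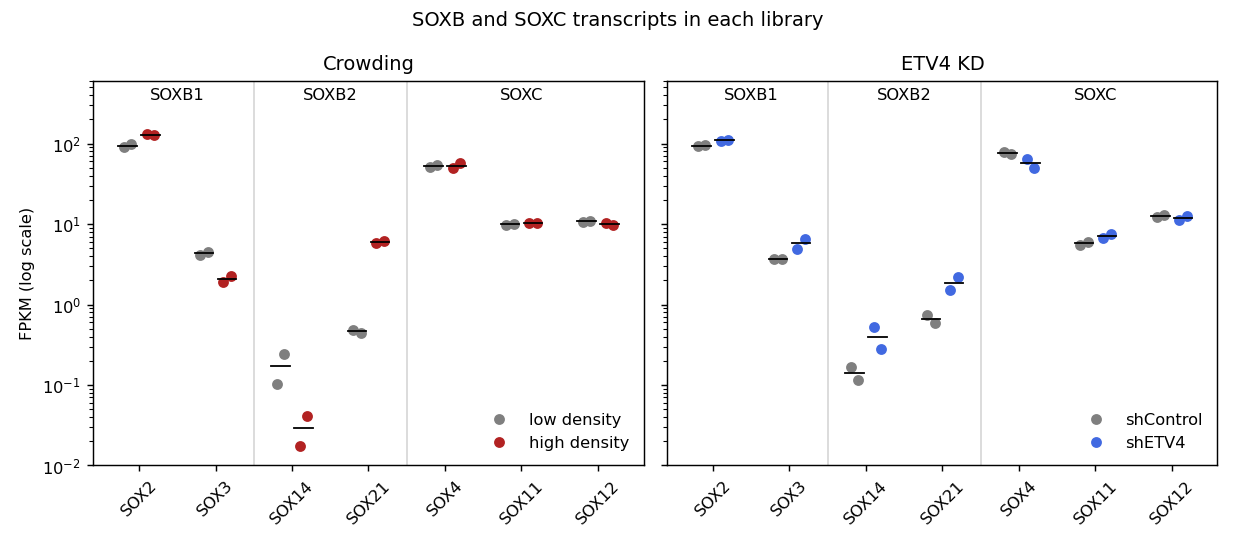
FPKM of the 7 genes in each library (points, log axis) with the group mean (line), for low and high density (left) and for shControl and shETV4 (right). SOX21 moved from below 0.5 FPKM to 5.75 and 6.13 FPKM at high density, while the SOX4 libraries of both densities overlapped.

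Crowding changed 3 of the 7 genes, all of them in the SOXB group: SOX21 rose, and SOX3 and SOX14 fell. The SOX14 call rested on few reads, in a gene past the filter on low counts only through the low-density libraries. DESeq2 and limma did not call or did not test SOX14, so the count rests mainly on SOX21 and SOX3. DEGs needed both an adjusted p under 0.05 by edgeR's quasi-likelihood test and a log2 fold change beyond 0.5 in either direction, and 16.1% of the 17672 genes tested passed. Of all genes tested 10.7% passed as higher and 5.47% as lower. Of the 7 genes, 5 had an adjusted p below 0.05, against 39.7% of all genes. For 6 of the 7 the FPKM of the densities did not overlap, which held for 70.2% of all genes. The median log2 fold change of the 7 was -0.04, against 0.00 for all genes tested.

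SOX21 (chr13:95361876-95364799, minus strand), a SOXB2 repressor, was at 0.487 and 0.446 FPKM in the low-density libraries and at 5.75 and 6.13 FPKM in the crowded libraries. These values rested on 82 and 91 reads at low density and on 1056 and 1282 reads at high density. Both crowded libraries were far above both low-density libraries. The mean went from 0.466 ± 0.0291 (SD, n = 2) to 5.94 ± 0.263 FPKM, a 12.2-fold rise (log2 fold change 3.61 ± 0.13 SE, adjusted p = 5.18e-14). By the size of its log2 fold change SOX21 was number 8 of the genes tested. With any 1 library left out the log2 fold change lay between 3.55 and 3.67.

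SOX3 (chrX:139585150-139587234, minus strand), the other SOXB1 gene besides SOX2 among the members and a regulator of hypothalamic and pituitary development, went the opposite way. Its level was 4.18 and 4.56 FPKM at low density and 1.89 and 2.26 FPKM at high density. Neither crowded library reached the lower of the low-density libraries. SOX3 fell by 1.13 on the log2 scale (± 0.14 SE, adjusted p = 1.76e-06), a 2.18-fold lower level. It passed the test with each library left out in turn, with log2 fold changes between -1.26 and -1.01.

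SOX14 (chr3:137483157-137485176, plus strand), the second SOXB2 gene, which marks interneurons of the ventral spinal cord, was close to the limit of detection. It had 13 and 35 reads at low density (0.103 and 0.245 FPKM) and 3 and 6 reads at high density (0.0175 and 0.0415 FPKM). The groups did not overlap, but the gene passed the filter on low counts only through the low-density libraries. The log2 fold change was -2.50 ± 0.60 SE (adjusted p = 0.00216). Pooled over the libraries of each density, 48 reads stood against 9, a depth-corrected ratio of 0.176 (95% exact interval 0.0758 to 0.362, for counting error only). Without the low-density library of replicate 2 the log2 fold change was -1.79 and no longer passed (adjusted p = 0.139). So the opposite movement of SOX14 and SOX21, the members of the SOXB2 group, rested on few SOX14 reads.

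SOX2 (chr3:181429713-181432224, plus strand) was at 90.3 and 97.8 FPKM at low density and at 131 and 128 FPKM at high density, with no overlap. It stood 1.33-fold higher in crowded hESCs (94.1 ± 5.29 against 129.7 ± 1.98 FPKM, SD, n = 2), with an adjusted p of 6.71e-06. Its log2 fold change of 0.41 ± 0.05 SE stayed under the fold threshold. With each library left out it was between 0.35 and 0.46.

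Of the SOXC genes 0 passed as DEGs with crowding by edgeR, DESeq2 or limma, and 1 (SOX12) had an unadjusted p below 0.05. SOX4 (chr6:21593982-21598850, plus strand), a regulator of progenitor survival, was at 50.9 and 54.3 FPKM at low density and at 49.5 and 57.2 FPKM at high density. Its groups overlapped (log2 fold change -0.04 ± 0.06 SE, adjusted p = 0.68). SOX11 (chr2:5832516-5841517, plus strand), known from immature neurons, was between 9.65 and 10.2 FPKM in all 4 libraries, with a log2 fold change of -0.01 ± 0.06 SE (adjusted p = 0.905). The direction of both flipped under some other settings, within 0.06 of zero. SOX12 (chr20:306196-310868, plus strand), a broadly expressed SOXC gene, was at 10.7 and 10.8 FPKM at low density and at 10.3 and 9.70 FPKM at high density. The change of -0.17 ± 0.06 SE (log2) had an adjusted p of 0.0406 but was under the fold threshold.

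The balance within the SOXB group shifted accordingly, by values that include the same reads. The ratio of summed SOXB1 to summed SOXB2 FPKM was 160.1 and 148 at low density and 23.0 and 21.2 at high density, and the groups did not overlap. The ratio of SOX2 to SOX3 went from 21.6 and 21.5 to 69.4 and 56.7. Summed SOXC FPKM overlapped between the densities (71.3 and 75.3 at low against 70.0 and 77.2 at high density). As a share of the summed FPKM of the 7, SOXC genes made up 42.8% and 42.2% at low density and 33.5% and 36.1% at high density. With 2 libraries against 2, an exact permutation test of such a ratio cannot give a p below 0.333, so these are given as values.

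**Figure D2:**
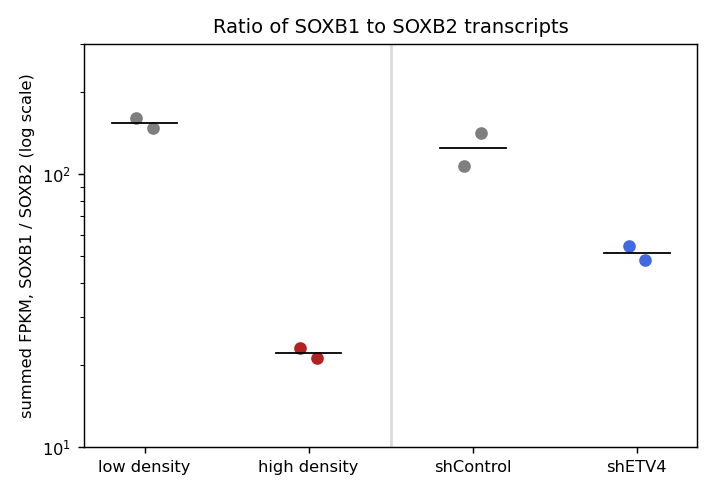
Ratio of summed SOXB1 FPKM (SOX2 and SOX3) to summed SOXB2 FPKM (SOX14 and SOX21) in each library (points, log axis) with the group mean (line). The crowded libraries sit at 23.0 and 21.2, the shETV4 libraries at 54.5 and 48.5, and every low-density and shControl library is above 100.

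With ETV4 KD 3 of the 7 genes were also DEGs, SOX3, SOX14 and SOX21, all of which rose. The calls of SOX3 and SOX14 were each lost with some single libraries left out, so the count rests mainly on SOX21. Of the 17879 genes tested 13.0% were DEGs, 5.88% as higher and 7.1% as lower. An adjusted p below 0.05 was reached by 4 of the 7 genes, against 21.5% of all genes, and 6 of the 7 had groups that did not overlap, against 63.3%. The median log2 fold change of the 7 was 0.30, against -0.00 for all genes tested.

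SOX21 measured 0.735 and 0.589 FPKM with shControl (135 and 101 reads), against 1.54 and 2.18 FPKM with shETV4 (276 and 375 reads). Both shETV4 libraries were above both shControl libraries. The rise was 2.81-fold (0.662 ± 0.103 to 1.86 ± 0.453 FPKM, SD, n = 2), with a log2 fold change of 1.49 ± 0.24 SE and an adjusted p of 0.00552. SOX21 passed with every library left out, at log2 fold changes between 1.18 and 1.75.

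SOX3 was at 3.63 and 3.73 FPKM with shControl and at 4.92 and 6.56 FPKM with shETV4. The shETV4 libraries did not overlap the controls but differed from each other more than the controls did. It rose 1.57-fold, by a log2 fold change of 0.65 ± 0.17 SE (adjusted p = 0.0293). Without the shControl library of replicate 1 it no longer passed (0.64, adjusted p = 0.0545), nor did it without the shETV4 library of replicate 2 (0.40, adjusted p = 0.0801).

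SOX14 had 21 and 14 reads with shControl (0.165 and 0.115 FPKM) and 65 and 33 reads with shETV4 (0.520 and 0.278 FPKM), again at the bottom of the range. Both shETV4 libraries were higher than the controls. The log2 fold change was 1.48 ± 0.43 SE (adjusted p = 0.043), and the pooled reads of 98 against 35 gave a ratio of 2.74 (95% exact interval 1.85 to 4.16, for counting error only). It was no longer called without the shControl library of replicate 2 (1.26, adjusted p = 0.123) or the shETV4 library of replicate 1 (0.99, adjusted p = 0.161). With the DESeq2 Wald test the adjusted p was 0.062.

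SOX2 was at 93.1 and 96.3 FPKM with shControl and at 107 and 113 FPKM with shETV4, a log2 fold change of 0.22 ± 0.07 SE that did not pass (adjusted p = 0.0688). SOX11 likewise did not pass, at 5.53 and 6.05 against 6.66 and 7.54 FPKM (0.30 ± 0.10 SE, adjusted p = 0.0651). Neither gene overlapped between its groups. SOX4 was lower with shETV4, at 63.9 and 49.7 FPKM against 78.1 and 74.0 FPKM, with a log2 fold change of -0.42 ± 0.10 SE and an adjusted p of 0.0233, which was under the fold threshold. Without the shETV4 library of replicate 1, SOX4 was called as lower (-0.58, adjusted p = 0.000376). SOX12 overlapped between the groups (12.2 and 13.0 against 11.4 and 12.5 FPKM, adjusted p = 0.649).

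The ratio of SOXB1 to SOXB2 FPKM was 107 and 142 with shControl and 54.5 and 48.5 with shETV4. SOXC genes took 49.5% and 48.0% of the summed FPKM with shControl and 41.8% and 36.5% with shETV4. In the controls SOX4 stood 14.1 and 12.2 times above SOX11, and with shETV4 9.60 and 6.59 times. None of these ratios overlapped between the groups.

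**Figure D3:**
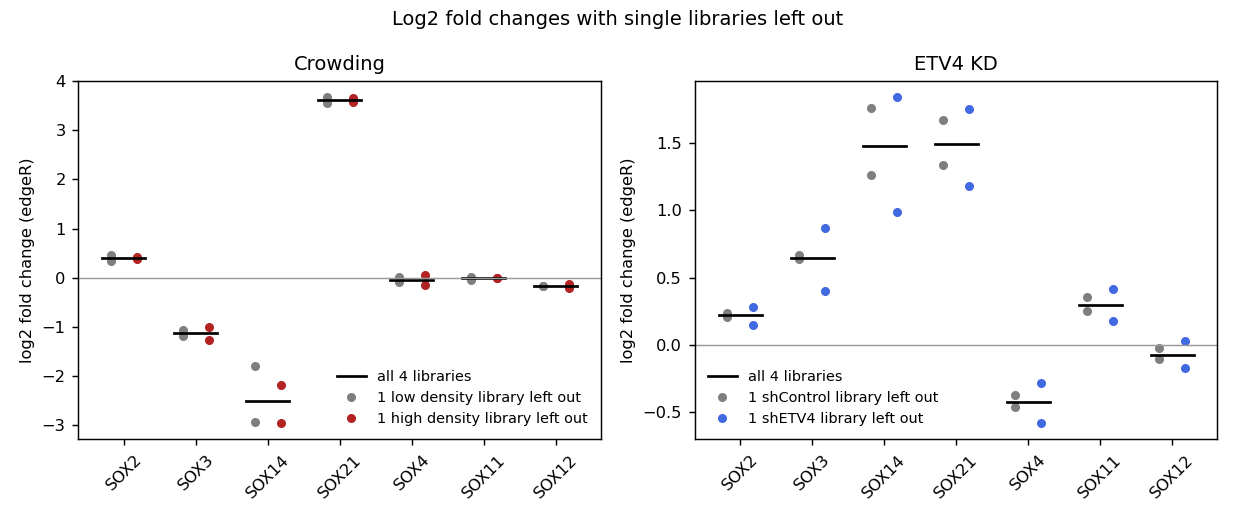
Log2 fold changes of the 7 genes from edgeR with all 4 libraries (line) and with 1 library left out (points, coloured by the group it came from), for crowding (left) and ETV4 KD (right, with its own axis range). SOX21 lies between 3.55 and 3.67 for crowding and between 1.18 and 1.75 for ETV4 KD, and SOX14 has the widest spread in both.

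Whether the responses differed between the experiments was tested as the difference of the log2 fold changes over the genes held by both tables. It passed an adjusted p of 0.05 for 5 of the 7 genes, 2 higher and 3 lower under crowding, against 38.5% of the 17790 genes tested (18.8% higher and 19.7% lower). SOX21 rose in both experiments but rose more with crowding, by a log2 difference of 2.11 ± 0.27 SE (adjusted p = 0.000136). SOX3 and SOX14 moved in opposite directions, with log2 differences of -1.78 ± 0.22 SE (adjusted p = 0.000107) and -3.99 ± 0.76 SE (adjusted p = 0.00154). With any 1 library left out these 3 differences kept their signs, and that of SOX14 lay between -4.45 and -3.28. The SOX14 difference rested on 3 and 6 reads in the crowded libraries and was not tested with a minimum of 10 counts. Of the 17206 genes tested in both experiments, 0.721% were called as higher in both and 2.63% were called in opposite directions, out of 3.94% called in both. Among the 7 members, 1 was higher in both and 2 went in opposite directions, SOX14 with that limit.

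SOX4 stood higher under crowding than under ETV4 KD by 0.38 ± 0.13 SE (adjusted p = 0.0392), and SOX11 lower by 0.32 on the log2 scale, as its difference of -0.32 ± 0.12 SE had an adjusted p of 0.0476. These were near the threshold. Without single libraries the adjusted p of SOX4 reached 0.179 and that of SOX11 0.172, and SOX4 lost the call with 6 and SOX11 with 7 of the 8 libraries left out in turn. SOX11 also lost it without a filter on low counts (adjusted p = 0.0548), with a minimum of 10 counts (0.0574) and with scaling to total counts (0.144). The difference was not called for SOX2 (0.18 ± 0.09 SE, adjusted p = 0.144) or SOX12 (-0.11 ± 0.11 SE, adjusted p = 0.474), which does not show that their responses were alike. SOX2 passed without the shETV4 library of replicate 2 (0.25, adjusted p = 0.0319).

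**Figure D4:**
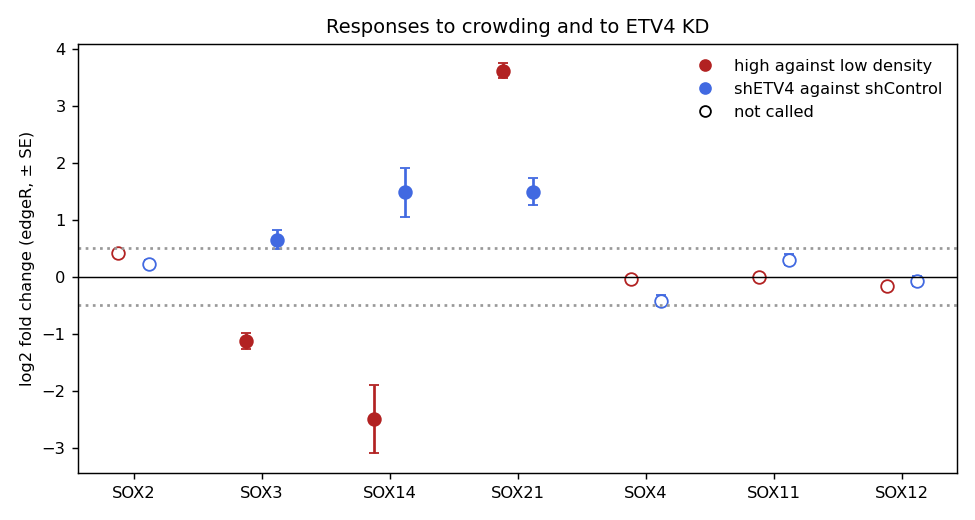
Log2 fold change (edgeR, error bars ± SE) of each gene for high against low density (red) and shETV4 against shControl (blue), with filled points for DEGs and dotted lines at the fold threshold of 0.5 in either direction. SOX21 is above 0 in both at 3.61 and 1.49, SOX3 goes from -1.13 to 0.65, and the SOXC genes stay within the dotted lines.

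Long non-coding RNAs measured in both experiments span the loci of SOX21, SOX2 and SOX12. SOX21-AS1 (chr13:95355708-95455684, plus strand) runs opposite to SOX21 with no shared exon bases in GENCODE, and the sources used here do not say if counting used the strand. It was at 0.457 and 0.403 FPKM at low density and at 2.37 and 2.58 FPKM at high density. Like SOX21, SOX21-AS1 rose with crowding, with no overlap (log2 fold change 2.46 ± 0.18 SE, adjusted p = 1.11e-09). With shETV4 it was at 1.13 and 1.12 FPKM against 0.636 and 0.767 FPKM (0.69 ± 0.20 SE, adjusted p = 0.0426). That call was lost without either shControl library (adjusted p = 0.305 and 0.0839) and without the shETV4 library of replicate 2 (adjusted p = 0.0772). GPR180, the other measured gene within 100 kb of SOX21, did not pass in either experiment.

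SOX2-OT (chr3:180707550-181554668, plus strand) contains SOX2 within its span, again with no shared exon bases. It was at 0.895 and 0.907 FPKM at low density and at 0.804 and 0.718 FPKM at high density, where SOX2 was higher, and it did not pass (log2 fold change -0.29 ± 0.18 SE, adjusted p = 0.219). With ETV4 KD it did not pass either (0.23 ± 0.17 SE, adjusted p = 0.365). CASC15, 65565 bases from SOX4, passed in neither experiment. NRSN2-AS1, which spans SOX12 on the opposite strand with no shared exon bases, passed in neither experiment (-0.02 ± 0.31 SE, adjusted p = 0.959, and -0.56 ± 0.24 SE, adjusted p = 0.128). Near SOX12, TRIB3 (2.13 ± 0.15 SE, adjusted p = 0.000205) and RBCK1 (0.60 ± 0.12 SE, adjusted p = 0.0121) rose with ETV4 KD while SOX12 did not pass, and RBCK1 was at 0.41, under the fold threshold, without the shETV4 library of replicate 2.

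**Figure D5:**
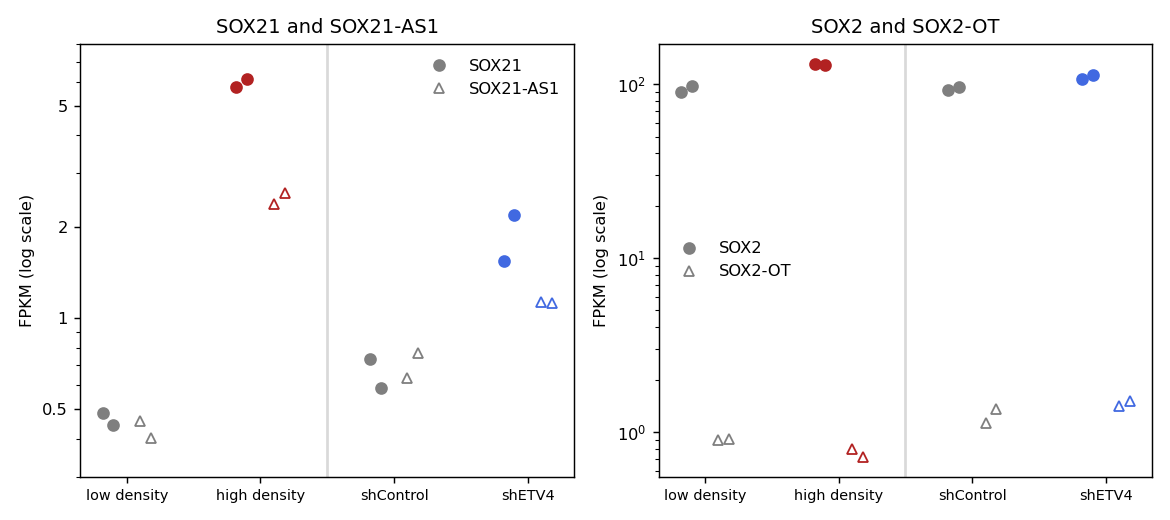
FPKM (log axes, a range of their own in each panel) of SOX21 and SOX21-AS1 (left) and of SOX2 and SOX2-OT (right) in each library, with filled points for the protein-coding gene and open triangles for the non-coding RNA, and grey for low density and shControl, red for high density and blue for shETV4. SOX21-AS1 reaches 2.37 and 2.58 FPKM at high density, while SOX2-OT stays between 0.718 and 1.51 FPKM in all 8 libraries.

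Among 12 other SOX genes, 2 of the 9 tested rose with crowding and 0 fell, and 1 of the 8 tested rose with ETV4 KD and 0 fell by edgeR, DESeq2 or limma. The rises with crowding were 1 with DESeq2 and 0 with limma. At an unadjusted p below 0.05, 1 was lower with crowding and 0 with ETV4 KD. The median log2 fold changes were 0.09 and 0.05. SOX15, a SOXG factor with an HMG box close to that of SOXB1 proteins, was the gene that rose with ETV4 KD, from 6.49 and 7.21 FPKM to 11.5 and 16.7 FPKM (log2 fold change 1.05 ± 0.19 SE, adjusted p = 0.00802). SOX1 and SOX10 were the genes called with crowding and are named after their values were seen. SOX1, the remaining SOXB1 gene, was at 0.00951 FPKM at low density and 0.0601 FPKM at high density (2.27 ± 0.61 SE, adjusted p = 0.00548), a level far below SOX2 and SOX3. It had on average 11.25 reads per library, passed the filter on low counts only through the crowded libraries and had no adjusted p from DESeq2 or with a minimum of 10 counts in every library. SOX1 lost the call without the low-density library of replicate 2 (adjusted p = 0.0504). SOX10 lost it without either low-density library or the crowded library of replicate 2 (adjusted p = 0.0664, 0.089 and 0.112). SOX1 and SOX2 transcripts share an identical run of 89 bases, against reads of 100 bases, whereas SOX2 and SOX21 share at most 60 bases.

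Of the partner factors, 1 of 8 tested rose and 1 fell with crowding, and 0 of 7 rose and 1 fell with ETV4 KD by edgeR, DESeq2 or limma, where 1 was higher at an unadjusted p below 0.05. POU3F1, a POU partner of SOXB1 and SOXC proteins in neural and epiblast cells, was the gene that fell, with log2 fold changes of -0.69 ± 0.10 SE (adjusted p = 1.16e-05) and -0.57 ± 0.10 SE (adjusted p = 0.00732). The gene that rose with crowding was POU3F4, named after its values were seen. Its level was low, at a mean of 0.0870 FPKM at low and 0.459 FPKM at high density (2.34 ± 0.32 SE, adjusted p = 6.75e-06). POU5F1 was at a mean of 1135 FPKM at low and 1069.6 FPKM at high density and was not a DEG in either experiment.

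Genes with known OCT4-SOX2 enhancers moved in both directions: 1 of 5 tested rose and 1 fell with crowding, and 0 of 6 rose (by edgeR, DESeq2 or limma, 1 at an unadjusted p below 0.05) and 2 fell with ETV4 KD. FGF4, the growth factor with the classical OCT4-SOX2 element, rose from 1.12 ± 0.0394 to 5.97 ± 0.409 FPKM (SD, n = 2) with crowding (2.36 ± 0.11 SE, adjusted p = 1.57e-12). With ETV4 KD, FGF4 fell by 1.41 on the log2 scale (± 0.28 SE, adjusted p = 0.0113), from 0.748 to 0.278 FPKM. These levels were low, and limma with a pseudocount of 1 gave -0.45, under the fold threshold. LEFTY1, a NODAL antagonist whose reads may be shared with its paralog LEFTY2, fell by 1.90 (± 0.20 SE, adjusted p = 0.000755) and by 2.95 (± 0.19 SE, adjusted p = 0.00016) on the log2 scale.

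Of 20 neural progenitor genes, 16 were tested for crowding, of which 1 rose and 8 fell, and the median was -0.43 (log2 fold change). The gene that rose was SOX1, with the limits given above. DESeq2 called 0 as higher and 7 as lower, and limma 0 and 4. LHX2, a forebrain factor named after its values were seen and 1 of the 8, lost its call with any single library left out (adjusted p from 0.0738 to 0.152). Of the 13 tested for ETV4 KD, 2 rose and 0 fell by edgeR or DESeq2 (1 by limma and 1 at an unadjusted p below 0.05), with a median of 0.21. CDH2 (N-cadherin) fell by 1.53 (± 0.07 SE, adjusted p = 4.66e-13), VIM (vimentin) by 1.07 (± 0.06 SE, adjusted p = 5.31e-11) and PROM1 (prominin-1) by 0.58 (± 0.06 SE, adjusted p = 1.35e-07) on the log2 scale with crowding. VIM rose with ETV4 KD (0.53 ± 0.10 SE, adjusted p = 0.0108), as SOX3 did, and OTX2, a forebrain and epiblast factor, rose by 2.73 ± 0.13 SE (adjusted p = 0.000103). VIM was under the fold threshold without the shETV4 library of replicate 2 (0.37) or the shControl library of replicate 1 (0.49). CDH2 and VIM also mark mesenchymal cells, and the study cites N-cadherin as a label of undifferentiated hESCs at the colony edge. The falls of CDH2 and VIM are therefore not specific to neural progenitors. The remaining genes that fell with crowding are named after their values were seen. They were SIX6 (-2.15 ± 0.26 SE, adjusted p = 1.57e-06), NCAM1 (-0.64 ± 0.16 SE, adjusted p = 0.00296), NES (-0.55 ± 0.05 SE, adjusted p = 8.08e-08) and FABP7 (-0.51 ± 0.17 SE, adjusted p = 0.0182). SIX6 went from 1.05 to 0.243 FPKM, and limma gave -0.49 for NES, under the fold threshold. PAX6, the SOX2 partner in the eye and neural tube, had on average 7.75 reads per library in the crowding experiment and was not tested.

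Of 15 early neuronal genes, known targets of SOXC factors among them, 11 were tested in each experiment. With crowding 3 rose and 2 fell, and with ETV4 KD 2 rose and 1 fell, with medians of -0.03 and 0.05. For crowding limma called 1 as higher and 1 as lower. TUBB3 (beta-III tubulin), a SOX4 and SOX11 target, fell by 0.67 on the log2 scale with crowding (± 0.09 SE, adjusted p = 9.2e-05) and rose with ETV4 KD (0.92 ± 0.12 SE, adjusted p = 0.0027). TEAD2, which the study names as related to mechanotransduction and which is not specific to neurons, rose with ETV4 KD as well (0.55 ± 0.08 SE, adjusted p = 0.00406). It was at 0.46, under the fold threshold, without the shETV4 library of replicate 2. The other genes called in this list are named after their values were seen. DCX (doublecortin), a marker of immature neurons, fell by 1.95 on the log2 scale with ETV4 KD (± 0.17 SE, adjusted p = 0.000529), from 1.69 and 1.41 FPKM to 0.455 and 0.339 FPKM. With crowding ELAVL3 (2.17 ± 0.22 SE, adjusted p = 1.35e-07), PROX1 (1.47 ± 0.28 SE, adjusted p = 0.000266) and MYT1 (0.85 ± 0.20 SE, adjusted p = 0.00171) rose, each from a low level. MAP2 fell by 0.87 (± 0.18 SE, adjusted p = 0.000516), also at a low level (0.671 to 0.367 FPKM). Limma did not call MAP2 (-0.43, adjusted p = 0.0507).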

How the data were processed

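Libraries (8 in all) were made from poly-A RNA with a stranded kit and read as pairs of 100 bases. The authors used Trimmomatic, HISAT2 2.1.0 (build GRCh37) and StringTie 2.1.3b, for known transcripts. They deposited 1 table per experiment with the read count of each gene, not normalized, and its FPKM, normalized by transcript length and mapped reads within each library. Each table holds only genes with at least 1 read in each of its 4 libraries. Columns of the authors' fold changes and p-values were not used, nor were 16 further columns of per-sample values.

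Groups came from the sample labels. The robust quasi-likelihood test of edgeR 4.0.16 (R 4.3.3) was run on the counts after filterByExpr and TMM, with Benjamini-Hochberg adjustment over all genes tested, within each table and, for the difference of responses, over the 8 libraries. The authors' methods name DESeq2, which was used as an alternative (1.42.0), as was limma 3.58.1 on log2(FPKM + 0.5), with pseudocounts of 0.1 and 1. Standard errors follow from the F statistic. The biological coefficient of variation was 6.83% for crowding and 9.93% for ETV4 KD between replicates. Counting error adds to it for SOX14 and for SOX21, whose lowest library held 82 reads. The fits were tested on simulated data. There the changed genes all had a higher mean level than SOX14, and every gene had the same spread. The simulation therefore does not cover the SOX14 calls.

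The rule for the members uses no measured value, but it and the gene lists were written with earlier results of these data known. Besides the 7 members, the genes named were up to 3 DEGs per list with the largest fold change and a mean FPKM of at least 1, defining markers, and genes within 100 kb of a member. Likeness to a member was the root mean square difference of log2 CPM (TMM, prior count of 2), centred within each table. Promoters came from RefSeq's table, where 5 of the 7 genes matched (not SOX14 or SOX11), placed on GRCh37 by exact match.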

Additional observations from a re-analysis of the deposited data

How the results depend on the processing

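SOX21 kept its direction and call in every setting that was run for crowding, ETV4 KD and their difference, as did SOX3 for crowding and for the difference. The number of members called lower with crowding was 1 in place of 2 with the DESeq2 Wald test, with limma at each pseudocount and without a minimum FPKM, and with a minimum of 10 counts in every library, since SOX14 was then untested or not called (limma without a minimum FPKM gave -0.34, adjusted p = 0.0729). It was between 1 and 2 with single libraries left out. The number called higher with ETV4 KD was 2 in place of 3 with the DESeq2 Wald test, without a filter on low counts and with limma at each pseudocount. SOX14 was then untested or not called. With limma without a minimum FPKM it was 1, where SOX21 remained. The count of 3 did not hold with any 1 library left out, as given above for SOX3 and SOX14. SOX4 with ETV4 KD was between -0.58 and -0.28 with single libraries left out. The difference of responses was called for 3 members in place of 5 with a minimum of 10 counts, and for at least 3 with single libraries left out. Among members and named DEGs, directions reversed only for values near 0 that were not called. SOX11 with crowding was 0.05 or 0.04 with limma, 0.04 with scaling to total counts (added after seeing the data) and between -0.04 and 0.02 with single libraries left out. SOX4 with crowding was 0.02 with limma, 0.01 with that scaling and between -0.14 and 0.06 with single libraries left out. SOX12 with ETV4 KD was between -0.17 and 0.03 with single libraries left out. The causes were not tested.

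By correlation the replicate numbers gave no sign of pairing: deviations of same-numbered libraries correlated at -0.0414 for crowding and 0.0856 for ETV4 KD, over 2 pairs each. With the replicate number as a block 2874 genes were called for crowding (2851 without), 2901 for ETV4 KD (2321 without) and 8008 for the difference (6847 without). Under the block the difference of SOX2 passed (0.18, adjusted p = 0.0484), and no other member's call changed. With ETV4 KD, however, SOX2 (0.22, adjusted p = 0.0013) and SOX11 (0.30, adjusted p = 0.000811) then had adjusted p-values below 0.05 by edgeR. Without a block the DESeq2 Wald test put SOX11 below 0.05 as well (0.30, adjusted p = 0.0405), but not SOX2 (0.22, adjusted p = 0.0663). Both genes stayed under the fold threshold in these fits, so whether they responded depends on the block and, for SOX11, on the test. Of 480 counts of list genes under other settings, 70 moved by over 1.5 times. Low read counts add to the error of SOX14, and of SOX21 in the low-density and shControl libraries.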

Other observations

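Among 12511 genes whose mean FPKM reached 1 in both experiments, those whose centred log2 CPM over the 8 libraries was most like that of a member were found as a description, with no test. For SOX3 they were VIM, EMP3 and SLC3A2, at root mean square differences of 0.104, 0.111 and 0.121 on the log2 scale and Pearson's r of 0.979, 0.973 and 0.979. Each of these had a negative log2 fold change with crowding (between -1.07 and -0.85) and a positive one with ETV4 KD (0.53, 0.69 and 0.69), like SOX3. By the root mean square difference SOX21 had no gene as close, and the nearest was SMIM10L2A (0.404), with log2 fold changes of 2.50 and 1.42. Its r of 0.988 was nevertheless above those of the genes nearest to SOX3. The next were PDCL3P4 and ECEL1P1, both annotated by their symbols as pseudogenes, at 0.440 and 0.555. SOX14 was nearest to RGS5, a regulator of G protein signalling, at 0.462. For SOX2 the nearest gene was ZNF175 at 0.0400, for SOX4 it was BMPR2, a BMP receptor, at 0.0330, for SOX11 it was MUS81 at 0.0171 and for SOX12 it was RITA1 at 0.0167. All of these values share the 8 libraries and the depth of each.

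Of the 9 pluripotency markers, 0 passed as DEGs with crowding by edgeR, DESeq2 or limma. At an unadjusted p below 0.05, 3 were higher and 3 lower, and NANOG had a log2 fold change of -0.46 (adjusted p = 3.36e-06). With ETV4 KD, LIN28A rose (0.51, adjusted p = 0.00228) and DNMT3B and TDGF1 each fell by 0.82 on the log2 scale (adjusted p = 0.000464 and 0.000386). Of 4 mesendoderm markers tested with crowding, 1 fell (FOXA2, named after its values were seen, from 0.231 to 0.0331 FPKM, with 21.25 reads per library on average and past the filter on low counts only through the low-density libraries), and of 3 tested with ETV4 KD, 1 rose (GATA4, likewise, from 0.0590 to 0.204 FPKM). GATA4 lost the call without the shControl library of replicate 1 (adjusted p = 0.13). The ratio of SOX2 to SOX4 FPKM was 1.77 and 1.80 at low density and 2.65 and 2.24 at high density, and it was 1.19 and 1.30 with shControl and 1.68 and 2.26 with shETV4. It was higher in both comparisons, although in the first the SOX2 mean differed and SOX4 overlapped. In the second SOX2 was higher and SOX4 lower with shETV4, each without overlap between the groups, and neither was a DEG.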
